A study of Mus musculus with 72 samples.

Results

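Aging of the testis in naturally conceived male mice (naturals) was examined by RNA-Seq of 9 libraries, 4 from testes at 39 weeks of age and 5 from testes at 12 weeks, out of 72 libraries in the series. The members were chosen by the group and age in their labels, and the counts were joined on the 35976 gene symbols that the count tables share. All 9 males were F1 offspring of CF-1 females, an outbred stock, mated with SJL/B6 males that were heterozygous for a GFP transgene, and per the methods pups were delivered by C-section at E18.5 and fostered. The labels give testis as the tissue. The methods say that seminiferous tubules of 1 testis were collected and snap-frozen, and that RNA came from a part of the snap-frozen testis, so how much tissue between the tubules the samples held is not certain. The methods describe 5 individuals from different litters per group, and 4 libraries were used at 39 weeks. For comparison, 5 testes at 12 weeks and 6 testes at 39 weeks of males conceived by IVF from the same cross were used, together with 5 testes at 12 weeks of F2 naturals, which are sons of natural F1 males and CF-1 females. The 39-week and 12-week libraries stand in separate count tables and no run is labelled, so age cannot be told apart from the table or the sequencing run.

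In the testis, spermatogonia divide at the base of the seminiferous tubule, spermatocytes pass through meiosis, and spermatids condense their chromatin with transition proteins and then protamines. Sertoli cells support these germ cells inside the tubule, peritubular myoid cells and a collagen-containing basement membrane surround it, and Leydig cells between the tubules make testosterone. Aging in the testis is commonly discussed in terms of declining steroid production, thickening of the basement membrane and loss of germ cells.

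The 39-week natural libraries held fewer counts, 11438213 to 12705316 each, than the 12-week natural libraries, 15352769 to 20347426 each, with no overlap. The mean log2 total was lower by 0.58 at 39 weeks (exact permutation of the age labels, both sides, p = 0.00794, which is the smallest possible here). The 39-week IVF libraries held 14033176 to 23318391 counts. Of the markers that define the tissue, 12 of 12 elongating spermatid genes, 14 of 14 Sertoli cell genes and 11 of 11 Leydig cell genes passed the filter on low counts, whereas 8 of the 10 epididymis and rete testis markers were too low to be tested.

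The 39-week libraries differed more from each other than the 12-week libraries did, and 39-week libraries 1 and 2 stood apart. The root mean square log2 difference over genes was 0.545 to 0.592 between pairs of 12-week libraries, 0.552 between 39-week libraries 1 and 2, and 0.707 to 0.856 between the other pairs of 39-week libraries. The first principal component held 34.6% of the variance and placed 39-week libraries 1 and 2 at 73.3 and 72.4, while the other 7 libraries lay between −30.5 and −11.9. Library 4 stood apart on the second component, at −69.8. Libraries 1 and 2 differed by 3.03 per gene in a chi-square statistic, against 7.37 to 11.1 between pairs of 12-week libraries. Counting noise alone gives about 1, or more where both mates of a read pair are counted. Beyond that noise the statistic grows with the counts of a library, and the 12-week libraries held more counts. The pairs were thus not compared at equal depth. They were kept as separate samples, and the count with both summed was also computed. Because these are bulk samples, fewer cells of a type and less RNA per cell cannot be told apart.

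Only 1 gene of 20055 tested was called between 12 and 39 weeks, at a Benjamini-Hochberg adjusted p below 0.05 and a difference of more than 1.5-fold (quasi-likelihood test of edgeR). It was 4930401O12Rik, a long noncoding RNA, and it was lower at 39 weeks. No gene rose by these criteria, although 1575 genes were higher and 1317 lower at an unadjusted p below 0.05, and DESeq2's Wald test called 199 genes, 73 of them higher. The share called by edgeR was 0.00499% of the genes tested. The share of variance between the ages was 18.8% over all genes tested (one-sided exact permutation test, p = 0.0556, with a smallest possible p of 0.00794), against a median of 10.1% over all assignments of the labels.

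4930401O12Rik lies on the minus strand of chromosome 13 at 31213410 to 31241086 (GRCm38, the assembly of mm10) and is annotated with 3 exons. Its function is not given in the annotation. It is the gene on which the age comparison turns, so its promoter is shown, from 250 bases before to 50 after the start in RefSeq (GRCm38.p6, chr13:31241037-31241336, minus strand, 5′ to 3′), with a tandem repeat of GTTCTA in capitals.
4930401O12Rik: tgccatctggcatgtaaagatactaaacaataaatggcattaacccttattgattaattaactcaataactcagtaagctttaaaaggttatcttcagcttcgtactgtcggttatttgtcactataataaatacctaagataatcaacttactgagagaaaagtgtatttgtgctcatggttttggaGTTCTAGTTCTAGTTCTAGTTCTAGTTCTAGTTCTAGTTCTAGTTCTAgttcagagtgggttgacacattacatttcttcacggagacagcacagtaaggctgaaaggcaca
The repeat runs for 8 copies of the 6-base unit, at positions 189 to 236 of these 300 bases. Of 32851 promoters of the same length, 1 (0.00304%), this one, held at least 3 tandem copies of GTTCTA on either strand. The unit was read from this promoter and other units were not counted. The share thus does not say how common tandem repeats are in promoters. The match is a description of the reference sequence, and the length of the repeat in these mice was not analysed here.

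In CPM, the counts of a gene scaled to the normalized total of its library (set on one scale over the 25 adult testis libraries), 4930401O12Rik was at 13.6, 16.4, 14.0, 15.4 and 12.9 in the 12-week naturals and at 2.15, 2.32, 1.84 and 2.73 in the 39-week naturals. Every 39-week natural library was thus far below every 12-week natural library, and the spread within each age was small. The means were 14.4 ± 1.41 CPM at 12 weeks (SD, n = 5) and 2.26 ± 0.374 CPM at 39 weeks (SD, n = 4), and the log2 fold change was −2.66 ± 0.19 (SE; adjusted p = 3.17e-05, edgeR).

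The same low level of 4930401O12Rik was also found at 12 weeks. Over the 25 adult libraries, 18 lay between 12.4 and 20.7 CPM, 7 lay between 1.53 and 2.73 CPM, and none lay between these ranges. The 7 low libraries were all 4 natural testes at 39 weeks, 1 of 5 IVF testes at 12 weeks and 2 of 5 F2 natural testes at 12 weeks. None of the 6 IVF testes at 39 weeks was low, with values of 18.6, 20.6, 20.7, 12.4, 17.7 and 19.1 CPM. With the F2 naturals as the 12-week group in place of the F1 naturals, the log2 fold change was −2.09 and its adjusted p was 0.0515 (edgeR). This gene was still called without any single natural library, and its log2 fold change lay between −2.78 and −2.57 when each 39-week library was left out in turn.

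**Figure D1:**
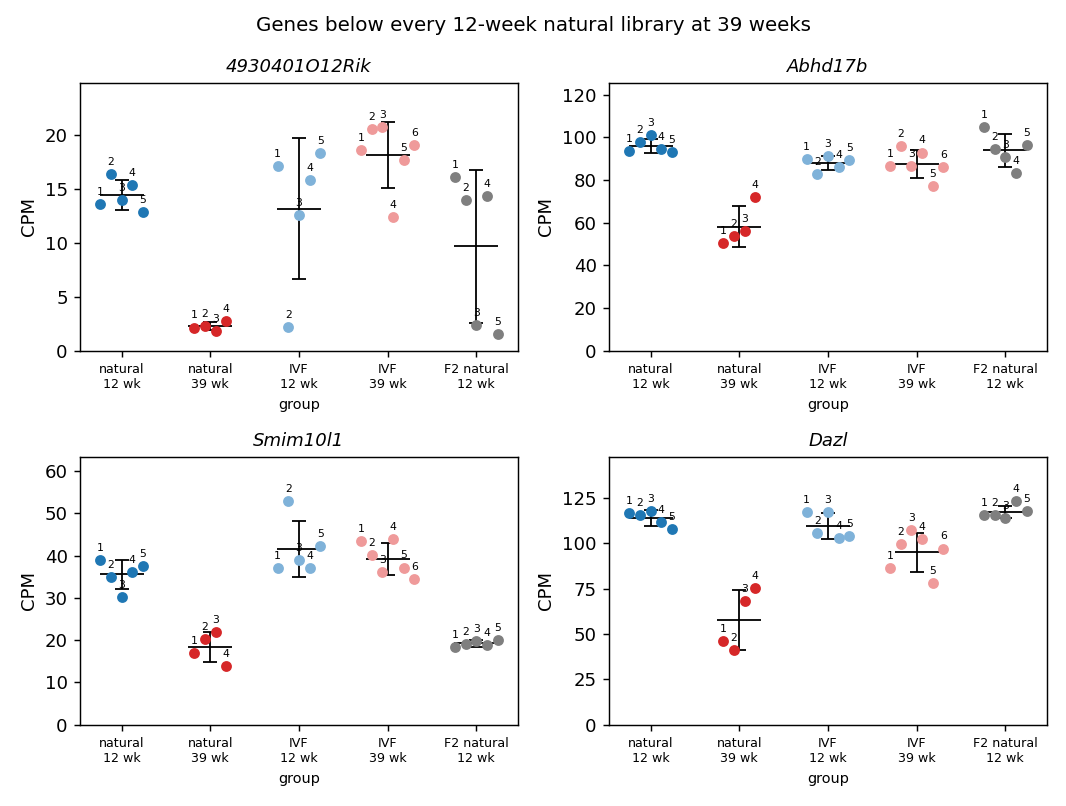
CPM (vertical axes, from 0) of 4 genes in every library of 5 groups of adult testes, with points numbered by replicate and bars for the mean ± SD. All 4 natural libraries at 39 weeks lie below the 5 natural libraries at 12 weeks for each gene, while low values of 4930401O12Rik, 1.53 to 2.73 CPM, also occur in 3 libraries at 12 weeks, and Smim10l1 is as low in the F2 naturals at 12 weeks.

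Counting all genes tested, 494 (2.46%) were higher in all 39-week libraries than in any 12-week library and 591 (2.95%) were lower in all of them, and 4930401O12Rik was the only one of these to pass the adjusted test. The smallest adjusted p-values after that of 4930401O12Rik were 0.102, for 4 genes that were picked here after their values were seen (Zfp820, Rn7sk, Smim10l1 and Gm17066). Smim10l1 encodes a small integral membrane protein. It was at 39.1, 34.9, 30.2, 36.0 and 37.6 CPM at 12 weeks and at 17.0, 20.3, 21.9 and 13.9 CPM at 39 weeks (log2 fold change −0.95 ± 0.15, adjusted p = 0.102, edgeR). The groups did not overlap, but the F2 naturals at 12 weeks were at 18.3, 19.1, 19.9, 18.8 and 20.1 CPM, within the range of the 39-week naturals. Rn7sk, the 7SK small nuclear RNA that holds back the elongation factor P-TEFb, was at 15.0 to 23.03 CPM at 12 weeks and at 42.0, 36.3, 28.1 and 44.1 CPM at 39 weeks (log2 fold change 1.07 ± 0.17, adjusted p = 0.102, edgeR). Its 39-week values all lay above the 12-week values, and it is not polyadenylated, whereas the libraries were made from mRNA. Fetub, which encodes the protease inhibitor fetuin-B and was also chosen after its values were seen, was at 0.242 to 1.51 CPM at 12 weeks and 2.17 to 7.69 CPM at 39 weeks in naturals. Its adjusted p was 0.180 in naturals and 0.0432 in IVF testes, with log2 fold changes of 2.67 and 2.26, and the difference between these 2 effects had an adjusted p of 0.881 (edgeR).

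Rag1, which encodes a recombinase subunit of lymphocytes, likewise lay at 2 levels within groups, and it was chosen after its values were seen. Over the 25 libraries, 9 lay between 0.501 and 1.83 CPM and 16 between 11.9 and 32.3 CPM. All 4 natural testes at 39 weeks were low, as were 1 of 5 at 12 weeks, 1 of 5 IVF testes at 12 weeks and 3 of 6 IVF testes at 39 weeks. Its log2 fold change in naturals was −3.88 ± 0.70 (adjusted p = 0.180, edgeR), and its values at 12 weeks, 1.17, 12.7, 12.3, 23.3 and 12.8 CPM, held both levels. H2-Ab1, a class II histocompatibility gene, was at 65.5 to 70.7 CPM in 5 libraries of the 25 and at 4.79 to 22.6 CPM in the other 20, and the only high natural F1 library was 1 of the 5 at 12 weeks.

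The number of genes called depended on 2 of the 4 libraries at 39 weeks. Without 39-week library 3, 442 genes were called (181 higher and 261 lower), and without library 4, 435 (198 higher and 237 lower), against 1 to 3 when any other natural library was left out. These 2 sets shared 117 genes, 26.5% of the first and 26.9% of the second. With libraries 3 and 4 both left out, 3841 genes were called, and with libraries 1 and 2 both left out, 16 (11 higher and 5 lower). Libraries 1 and 2 summed as a single library gave 1 gene. The removal or summing of pairs of libraries was chosen after the libraries had been compared, and libraries 1 and 2, which remained when 3 and 4 were left out, were the most alike pair of the 4. For single genes, leaving out the 39-week library that differs most from the others tends to lower the p-value. Passes without library 3 or 4 are given below as descriptions, and libraries 1 and 2 are then among those left.

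**Figure D2:**
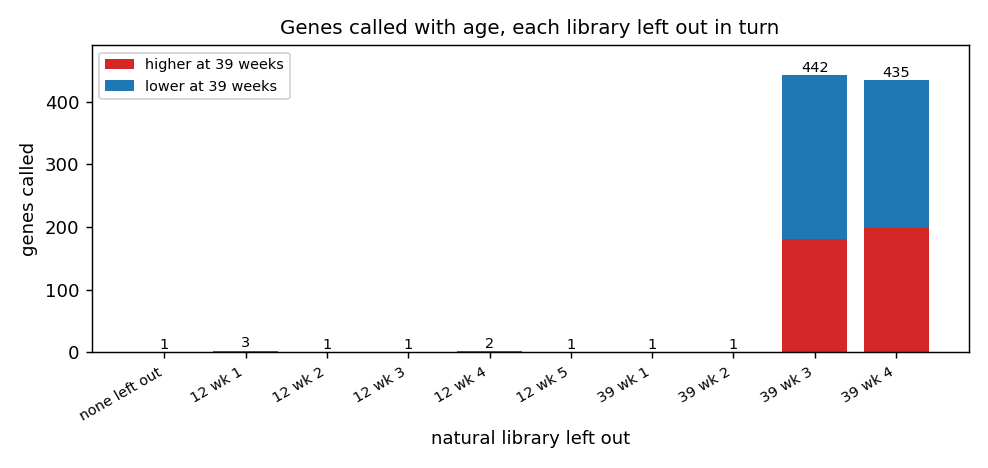
Number of genes called with age in naturals (vertical axis) with no library left out and with each of the 9 libraries left out in turn (horizontal axis), divided into higher and lower at 39 weeks. The count is 1 to 3 except without 39-week library 3 (442) or library 4 (435).

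No member of the 28 gene lists passed the test with age in the naturals (edgeR). The lists held 334 distinct genes that were tested, of which 23 were higher and 30 lower at an unadjusted p below 0.05, and DESeq2 called 6, namely Prm1 and Hba-a1 as higher and Dazl, Meioc, Igf1 and Pdgfra as lower. Of the 334, 2 of them were higher and 16 lower in all 39-week than in any 12-week library, 0.599% and 4.79%. Among all genes tested these shares were 2.46% and 2.95%, and the median log2 fold change was 0.02. Of all 20055 genes tested, 1575 were higher and 1317 lower at an unadjusted p below 0.05 (edgeR), 14.4% together. A positive log2 fold change was found for 10417 and a negative one for 9638. The counts of each list below stand beside these numbers.

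Among the germ cells, genes of early meiotic spermatocytes had the smallest adjusted p-values. Of 17 tested, 0 were called, 6 were lower and 0 higher at an unadjusted p below 0.05, and 12 had a negative and 5 a positive log2 fold change, with a median of −0.13. Dazl, which encodes an RNA-binding protein that germ cells need to enter meiosis, was at 117, 115, 118, 111 and 108 CPM at 12 weeks and at 46.2, 41.4, 68.3 and 75.4 CPM at 39 weeks. The 39-week libraries lay below all 12-week libraries, with libraries 1 and 2 lowest. The means were 114 ± 4.25 CPM (SD, n = 5) and 57.8 ± 16.6 CPM (SD, n = 4), and the log2 fold change was −0.97 ± 0.16 (adjusted p = 0.117, edgeR). It passed the test without library 3 (adjusted p = 0.0304) or library 4 (0.0145), and its log2 fold change was −0.65 without libraries 1 and 2 (adjusted p = 0.0350, edgeR). In IVF testes, Dazl was at 103 to 117 CPM at 12 weeks and 78.0 to 107 CPM at 39 weeks, a log2 fold change of −0.20 (adjusted p = 0.337, edgeR). With the trend on GC content removed, its log2 fold change in naturals was −0.60 (adjusted p = 0.305, edgeR).

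Meioc and Hormad1, named here after their values were seen, were the other early meiotic genes whose ages did not overlap. Meioc, which keeps spermatocytes in the meiotic program, was at 182, 179, 173, 185 and 178 CPM at 12 weeks and at 91.7, 83.5, 139 and 156 CPM at 39 weeks (adjusted p = 0.195, edgeR). Hormad1, which encodes a protein of the meiotic chromosome axis, was at 58.2, 59.2, 64.1, 63.1 and 56.9 CPM and 38.9, 31.8, 43.1 and 54.4 CPM (adjusted p = 0.196, edgeR). Sycp1, a component of the synaptonemal complex, was at 89.8 to 118 CPM at 12 weeks and 68.1 to 94.8 CPM at 39 weeks, so that the ages overlapped. The most counted genes of the list, Syce1 and Sycp2, had log2 fold changes of opposite sign, 0.23 and −0.40, with adjusted p-values of 0.460 and 0.222 (edgeR). With the trend on GC content removed, they were at 0.22 and 0.01, with adjusted p-values of 0.607 and 0.978 (edgeR).

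The genes of elongating spermatids were not called in any of their 12 tested members, and 11 of the 12 had a positive log2 fold change, with a median of 0.39 and 6 of them higher at an unadjusted p below 0.05 (edgeR). Among the naturals, the higher values were carried by libraries 1 and 2. The median log2 difference of the list from the 12-week mean was 0.78, 0.81, −0.02 and −0.06 in 39-week libraries 1, 2, 3 and 4. Prm1, which encodes protamine 1, was at 2416, 2720.1, 2387, 2532 and 2595 CPM at 12 weeks and at 5159.7, 5282, 2943 and 2561 CPM at 39 weeks. Libraries 1 and 2 were far above all 12-week libraries, library 3 was slightly above them and library 4 lay among them (log2 fold change 0.67 ± 0.19, adjusted p = 0.206, edgeR). Tnp1, which encodes a transition protein, was at 2333 to 2923 CPM at 12 weeks and at 4604, 4814, 2744 and 1918 CPM at 39 weeks, so that library 4 was below all 12-week libraries. Prm2 and Tnp2, the most counted genes of the list, were likewise highest in libraries 1 and 2. Prm2 was at 4074 to 5009 CPM at 12 weeks and 8193, 8248, 4286 and 4341 CPM at 39 weeks, and Tnp2 at 3420.4 to 4077 CPM and 7617, 7870.0, 4638 and 3624 CPM. Without library 3, the log2 fold change of Prm1 was 0.79 (adjusted p = 0.0423), without library 4 it was 0.82 (adjusted p = 0.0321), and without libraries 1 and 2 it was 0.13 (adjusted p = 0.555, edgeR). In IVF testes, the median log2 fold change of the list with age was 0.24 and 0 members were called. From the 12-week natural mean, its median difference was 0.48, 0.31, 0.39, −0.05, 0.29 and 0.37 in IVF 39-week libraries 1 to 6. It was 0.01 to 0.22 in the 12-week IVF libraries.

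**Figure D3:**
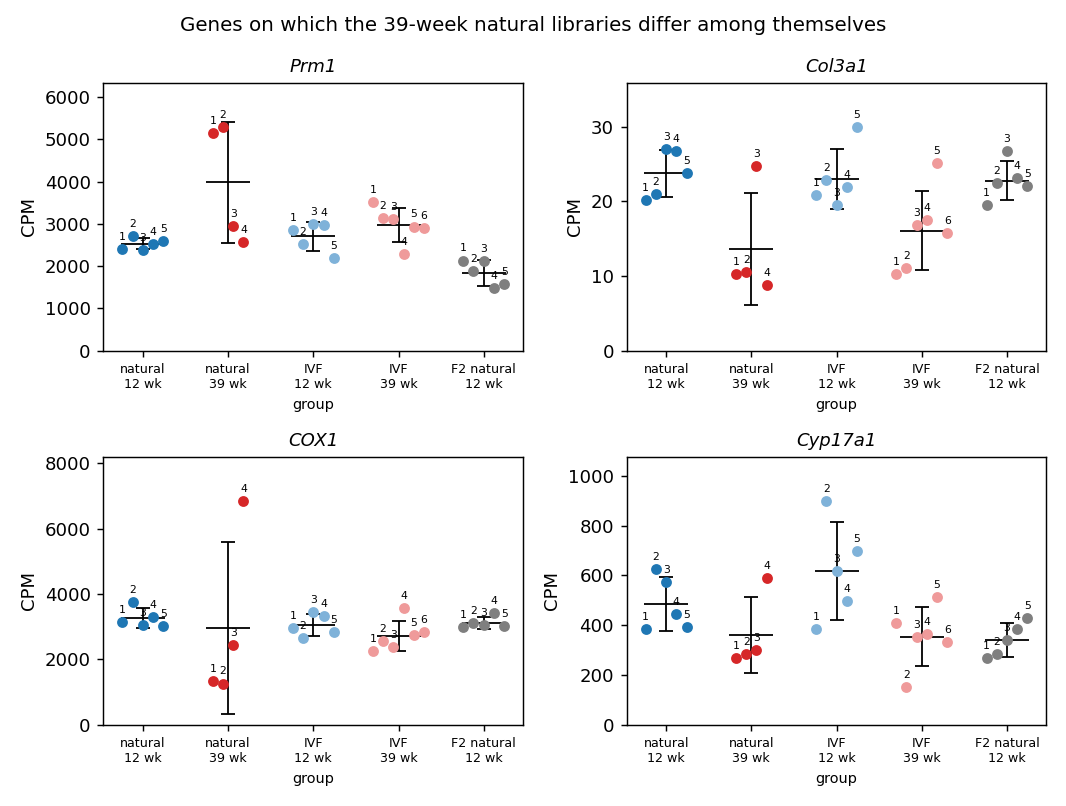
CPM (vertical axes, from 0) of Prm1, Col3a1, COX1 and Cyp17a1 in every library of 5 groups of adult testes, with points numbered by replicate and bars for the mean ± SD. The 39-week natural libraries split among themselves: libraries 1 and 2 are highest for Prm1, library 3 is highest for Col3a1, and library 4 is highest for COX1 and Cyp17a1.

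In the other germ cell lists, the median log2 fold change was 0.00 for 11 genes of undifferentiated spermatogonia, 0.11 for 9 of differentiating spermatogonia, 0.06 for 10 of pachytene spermatocytes and 0.13 for 11 of round spermatids, and 0 members were called in each (edgeR; smallest adjusted p in these lists 0.260, and 3 genes at an unadjusted p below 0.05). Gfra1, the GDNF receptor of spermatogonial stem cells, was at 11.8, 9.58, 5.53, 11.9 and 8.60 CPM at 12 weeks and 10.5, 14.7, 8.86 and 9.94 CPM at 39 weeks, and the ages overlapped. Kit, the receptor of differentiating spermatogonia, was at 18.48 to 25.3 CPM at 12 weeks and at 15.9, 13.3, 25.4 and 33.9 CPM at 39 weeks, with libraries 1 and 2 below all 12-week values, library 3 at their upper end and library 4 above them. Etv5 and Id4 of the undifferentiated cells had log2 fold changes of −0.18 and 0.08, Dmrtb1 and Uchl1 of the differentiating cells 0.11 and 0.30, Ybx2 and Ldhc of the pachytene cells 0.27 and 0.10, and Tssk1 and Zpbp2 of the round spermatids 0.20 and −0.19. None of these 8 genes passed the test.

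Among the somatic cells, the 14 Sertoli cell genes had log2 fold changes between −0.11 and 0.30, with a median of 0.02, and none was called or reached an unadjusted p below 0.05 (edgeR). Amh, the hormone that immature Sertoli cells make, was low at both ages, at 1.74 to 3.09 CPM and 1.91 to 2.67 CPM. Ctsl and Amhr2 had log2 fold changes of −0.02 ± 0.11 and 0.25 ± 0.14.

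Genes of the Leydig cells differed in direction. Of 11 tested, 0 were called, 1 was higher at an unadjusted p below 0.05 (edgeR), 7 had a positive and 4 a negative log2 fold change, and the median was 0.12. Their summed level was 911 to 1352 CPM at 12 weeks and 868, 893, 949.8 and 1404 CPM in 39-week libraries 1 to 4. Cyp17a1, which encodes the enzyme that converts progestins to androgens, was at 385, 626, 574, 443 and 393 CPM at 12 weeks and at 266, 285, 299 and 590.3 CPM at 39 weeks. Libraries 1 to 3 were below all 12-week values and library 4 was among them (log2 fold change −0.42 ± 0.24, adjusted p = 0.433, edgeR). Without library 4, the most different of the 4, its log2 fold change was −0.77 and it passed the test (adjusted p = 0.0358, edgeR). Insl3, a peptide hormone of mature Leydig cells, was at 69.5, 73.1, 88.1, 63.5 and 78.6 CPM at 12 weeks and at 126.2, 133, 115 and 66.6 CPM at 39 weeks. Libraries 1 to 3 were above all 12-week values and library 4 was among them, with a log2 fold change of 0.57 ± 0.18 (adjusted p = 0.216), or 0.74 without library 4 (adjusted p = 0.0196, edgeR). Star, which encodes the protein that brings cholesterol into mitochondria, was at 78.6 to 145 CPM and 72.2 to 106 CPM, and Lhcgr, the receptor of luteinizing hormone, at 8.98 to 12.1 CPM and 3.22 to 14.4 CPM. Cyp11a1, which encodes the first enzyme of steroid synthesis, had a log2 fold change of 0.13 ± 0.24.

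Genes of collagens and the extracellular matrix lay below the 12-week level in 3 of the 4 libraries. Of 27 tested, 0 were called, and 1 was higher and 8 lower at an unadjusted p below 0.05 (edgeR). A negative log2 fold change was found for 25 of them, against 9638 of 20055 genes tested. The median was −0.36, against 0.02 over all genes tested. The median log2 difference from the 12-week mean was −0.46, −0.51, 0.07 and −0.43 in libraries 1, 2, 3 and 4. Col3a1, a fibrillar collagen named after its values were seen, was at 20.2, 21.0, 27.0, 26.8 and 23.8 CPM at 12 weeks and at 10.3, 10.6, 24.7 and 8.78 CPM at 39 weeks (log2 fold change −0.80 ± 0.26, adjusted p = 0.228, edgeR). Without library 3, whose list median was 0.07, Col3a1, Col1a2, Col4a1, Fbn1 and Nid1 passed the test. The log2 fold change of Col3a1 was then −1.25 (adjusted p = 0.0198, edgeR). Without library 4, 0 members of the list passed it.

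Sparc, a collagen-binding glycoprotein and one of the most counted matrix genes, was at 258, 325, 309, 309 and 293 CPM at 12 weeks and 241, 225, 209 and 199 CPM at 39 weeks. Every 39-week library was below all F1 natural values at 12 weeks (log2 fold change −0.44 ± 0.11, adjusted p = 0.195, edgeR). The F2 naturals at 12 weeks were at 225, 237, 257, 304 and 263 CPM, which overlapped the 39-week values. Timp2, an inhibitor of matrix metalloproteinases, was above all F1 natural values at 12 weeks in every library, at 124 to 154 CPM and 162 to 178 CPM (adjusted p = 0.293, edgeR). The F2 naturals at 12 weeks were at 147 to 184 CPM, which overlapped the 39-week values as well. Col1a1 was at 16.6, 23.1, 23.3, 22.7 and 24.7 CPM at 12 weeks and 18.6, 20.6, 27.0 and 8.78 CPM at 39 weeks, and Vcam1, a cell adhesion molecule, at 41.4 to 83.1 CPM and 32.6 to 71.7 CPM. The ages overlapped for both, with adjusted p-values of 0.699 and 0.545 (edgeR). In IVF testes, the median log2 fold change of the list was −0.23 and 0 members were called.

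Interstitial stromal genes had a median of −0.33 over 9 tested, with 0 called and 2 lower at an unadjusted p below 0.05 (edgeR). Igf1, a growth factor named after its values were seen, was at 7.45, 7.25, 5.78, 7.77 and 6.79 CPM at 12 weeks and 2.34, 2.32, 4.93 and 2.49 CPM at 39 weeks, with library 3 nearest to the 12-week values (log2 fold change −1.20 ± 0.26, adjusted p = 0.180, edgeR). Pdgfra, a growth factor receptor of stromal cells, was at 13.1 to 22.0 CPM and 6.91, 6.35, 14.3 and 11.2 CPM (adjusted p = 0.195, edgeR). Dcn, a small proteoglycan, had a log2 fold change of −0.39 ± 0.19. With the trend on GC content removed, Dcn was at −0.003, whereas Pdgfra went from −0.95 to −0.93. With no trend removed, Actg2 and Mylk of the peritubular myoid cells had log2 fold changes of 0.21 and −0.21, and 0 of 9 genes of that list were called.

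**Figure D4:**
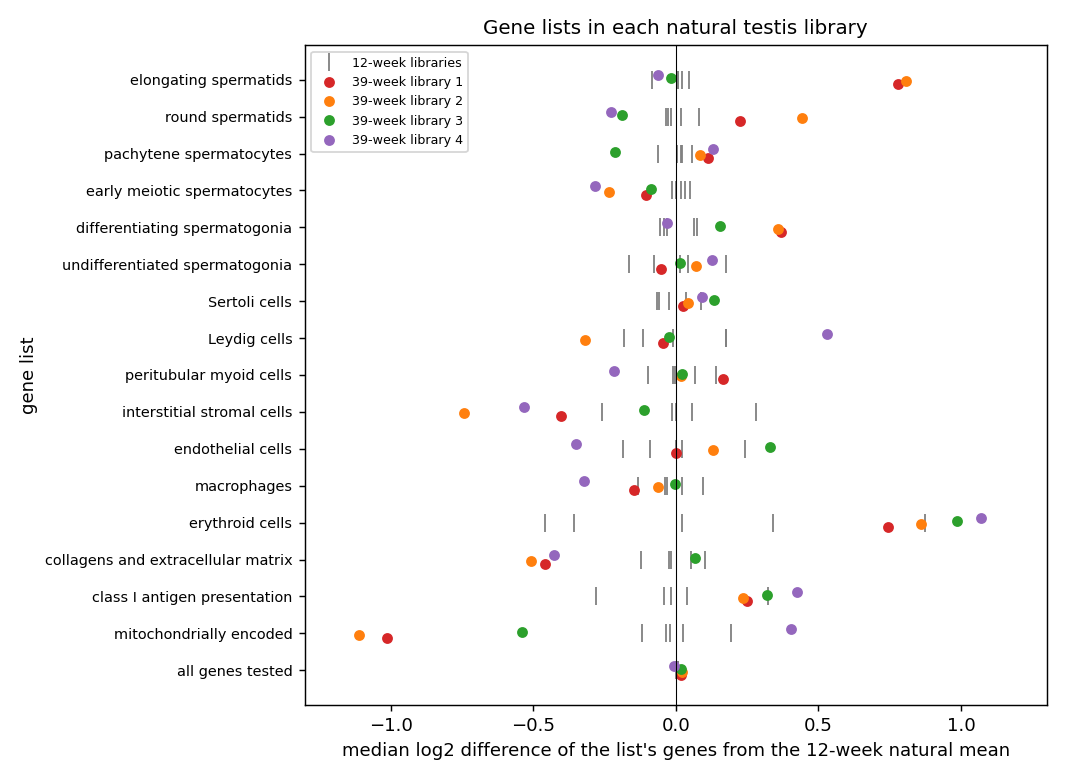
Median log2 difference of each list's tested genes from the mean of the 12-week naturals (horizontal axis), for 16 gene lists and all genes tested, in every natural library. Grey ticks are the 5 libraries at 12 weeks and coloured points the 4 at 39 weeks. Libraries 1 and 2 stand apart for elongating spermatids (0.78 and 0.81), library 3 alone stays with the 12-week libraries for collagens and extracellular matrix (0.07), and the 4 libraries spread from −1.11 to 0.40 for mitochondrially encoded genes.

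Among the 28 lists, the medians of the mitochondrially encoded genes were the most spread over the 4 libraries at 39 weeks. All 7 tested had a negative log2 fold change, the median was −0.37, and 0 were called, with 1 at an unadjusted p below 0.05 (edgeR). Their summed level was 6442 to 8051 CPM at 12 weeks and 3254, 3018, 5203 and 11615 CPM in libraries 1 to 4, so that 3 libraries were below and 1 above every 12-week library. COX1, a subunit of cytochrome c oxidase, was at 3139.5, 3759, 3055, 3299 and 3024 CPM at 12 weeks and at 1326, 1256, 2422 and 6833 CPM at 39 weeks. Without library 4, whose summed level was above every 12-week library, COX1, ND1, ND2 and ND4 passed the test. COX1 then had a log2 fold change of −0.96 (adjusted p = 0.0334) and ND1, a subunit of complex I, −0.88 (adjusted p = 0.0145, edgeR).

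Markers of blood and immune cells were measured as other cells that a testis sample can hold. Erythroid genes had the highest median of all lists, 0.90 over 5 tested, with 0 called and 3 higher at an unadjusted p below 0.05 (edgeR). Their summed level was 35.2, 26.3, 56.3, 42.6 and 23.3 CPM at 12 weeks and 59.9, 59.0, 58.6 and 71.1 CPM at 39 weeks, so that all 39-week libraries were above all 12-week ones. Klf1, a transcription factor of the erythroid lineage that is not in the list and was named after its values were seen, lay in the opposite direction in naturals, at 4.14, 5.01, 5.34, 5.07 and 1.15 CPM at 12 weeks and 0, 0.626, 0.501 and 0.331 CPM at 39 weeks, with no overlap (adjusted p = 0.117, edgeR). In IVF testes, Klf1 was at 0.638, 6.98, 0.850, 0.683 and 7.46 CPM at 12 weeks and 1.03 to 5.27 CPM at 39 weeks. The F2 naturals at 12 weeks were at 0.864 to 3.39 CPM, so low values of Klf1 also occurred at 12 weeks. Hbb-bs, a β-globin, was at 14.9, 9.73, 24.6, 15.5 and 7.75 CPM and 22.4, 24.3, 26.9 and 33.8 CPM in naturals, and the ages overlapped (adjusted p = 0.212, edgeR). The part of blood in the other results was not tested. Macrophage genes had a median of −0.18 over 16 tested. Their most counted gene, Aif1, was at 641, 665, 354 and 258 CPM at 39 weeks and 349 to 399 CPM at 12 weeks. It held most of the summed level of the list, which was 464 to 520 CPM at 12 weeks. Aif1 showed the same split of libraries 1 and 2 as the protamines, and which cells its RNA came from was not tested. Mrc1, the mannose receptor, was lower in libraries 1 and 2, at 10.4, 12.7, 25.8 and 27.1 CPM at 39 weeks against 23.5 to 29.3 CPM at 12 weeks. T and NK cell genes had a median of 0.03 over 6 tested of 12 and B and plasma cell genes 0.04 over 4. Endothelial genes had a median of 0.02 over 11.

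In the senescence and secretory list, 6 of 12 genes were positive and the median was 0.04. None was called, and 2 were higher and 0 lower at an unadjusted p below 0.05 (edgeR). One member, Glb1, was higher in all 39-week than in any 12-week natural library, as were 2.46% of all genes tested. Cdkn2a, which encodes the cell cycle inhibitors p16 and p19, was at 3.94, 1.89, 2.77, 2.27 and 3.70 CPM at 12 weeks and 4.76, 5.63, 5.18 and 3.23 CPM at 39 weeks, with a log2 fold change of 0.70 ± 0.28 (adjusted p = 0.290, edgeR). Cdkn1a, which encodes p21, was at 10.6 to 11.9 CPM and 11.5 to 14.1 CPM (adjusted p = 0.558, edgeR). The median was 0.33 for 10 genes of class I antigen presentation, 0.01 for 11 interferon-stimulated genes, 0.14 for 24 antioxidant enzymes and −0.04 for 16 genes of double-strand break repair. It was −0.05 for 15 piRNA pathway genes, 0.03 for 19 of cholesterol synthesis, 0.11 for 12 chaperones, −0.17 for 10 immediate early genes and −0.09 for 15 clock genes. At an unadjusted p below 0.05 (edgeR), 2 class I genes, 3 antioxidant enzymes, 1 piRNA pathway gene and 1 clock gene were higher. By the same limit, 1 antioxidant enzyme, 1 piRNA pathway gene, 4 genes of cholesterol synthesis and 2 clock genes were lower. Single members split the 39-week libraries in the same way as the first principal component. Mdc1, a scaffold of DNA damage signaling, was at 426 to 461 CPM at 12 weeks and at 236, 248, 543 and 589.7 CPM at 39 weeks, and Tdrd6, a tudor protein of the chromatoid body, at 1158 to 1304 CPM and 775, 777, 1322 and 1533 CPM, both below all 12-week values in libraries 1 and 2 and above them in libraries 3 and 4.

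The differences of the 39-week libraries were related to the GC content of the transcripts. Across 17565 genes with a known transcript (87.6% of those tested), Spearman's rho between GC content and the log2 fold change was 0.44 in naturals and −0.27 for transcript length. Genes are not independent replicates, and these values are descriptions. In IVF testes, rho was −0.04 for GC content and −0.11 for transcript length over 17755 genes. Per library, rho of the difference from the 12-week natural mean was 0.35, 0.36, 0.21 and 0.17 in 39-week natural libraries 1 to 4. It was −0.13 to 0.09 in the 12-week naturals, which form that mean. It was −0.04 to 0.19 in the 12-week IVF libraries, −0.13 to 0.15 in the 39-week IVF libraries and −0.19 to −0.03 in the F2 naturals. For transcript length, rho was −0.39, −0.40, 0.17 and 0.01 in 39-week natural libraries 1 to 4. It was −0.13 to 0.10 in the 12-week naturals and −0.41 to 0.18 in the 39-week IVF libraries. The share of even values among counts of 1 to 20 was 65.3% to 71.2% at 39 weeks and 63.6% to 65.0% at 12 weeks in naturals, and the part of these library properties in the results was not tested. With the GC trend removed, 4930401O12Rik was still the only gene called, and the number of genes at an unadjusted p below 0.05 was 1815 against 2892.

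**Figure D5:**
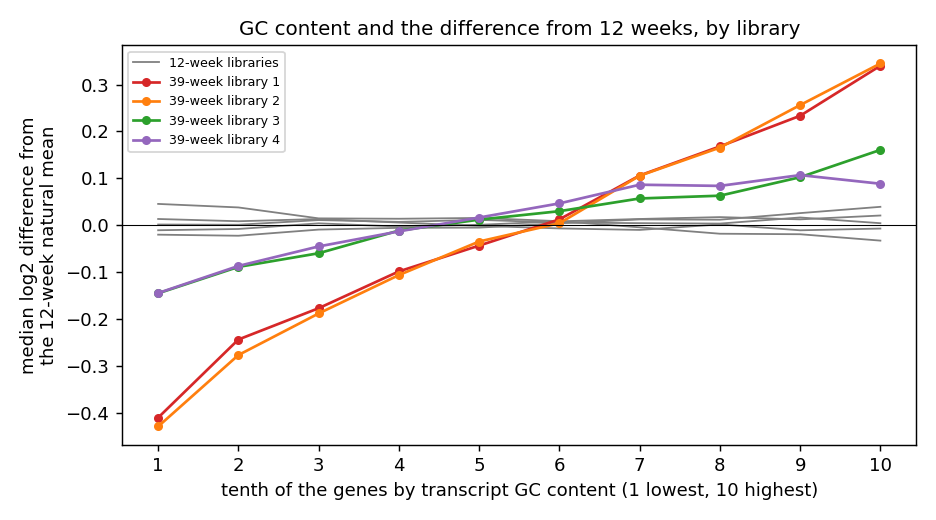
Median log2 difference from the mean of the 12-week naturals (vertical axis) in 10 equal groups of genes ordered by transcript GC content (horizontal axis, 1 lowest and 10 highest), for each natural library. The 12-week libraries stay within 0.05 of 0, whereas 39-week libraries 1 and 2 run from −0.41 and −0.43 in group 1 to 0.34 in group 10.

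Few genes were called with age in IVF testes either. Of 20324 tested, 5 were called (3 higher and 2 lower, 0.0246%), and 32 passed the adjusted p without the limit on fold (28 higher and 4 lower, edgeR). At an unadjusted p below 0.05 there were 2534 genes (edgeR). Whether the effect of age differed between IVF and natural testes was tested by the interaction of age and conception, which called 4 of 21513 genes (0.0186%), and these were 4930401O12Rik, LOC108167731, Abhd17b and Pex14. For 4930401O12Rik, the log2 effect of age was −2.66 in naturals and 0.46 in IVF testes (difference 3.13 ± 0.49, adjusted p = 0.0442, edgeR). Abhd17b, which encodes a depalmitoylating enzyme, was at 93.6, 98.1, 101, 94.6 and 93.4 CPM at 12 weeks and 50.6, 53.6, 56.1 and 72.1 CPM at 39 weeks in naturals, and at 82.8 to 91.2 CPM and 77.1 to 96.2 CPM in IVF testes (difference 0.72 ± 0.13, adjusted p = 0.0442, edgeR). LOC108167731 was at 6.96 to 11.1 CPM and 4.74 to 5.18 CPM in naturals and at 7.79 to 9.70 CPM and 8.66 to 14.0 CPM in IVF testes (difference 1.26 ± 0.22). Pex14, a peroxisomal import protein, was at 32.4 to 37.0 CPM and 55.6, 62.6, 39.3 and 54.9 CPM in naturals and at 37.1 to 39.6 CPM and 31.7 to 34.6 CPM in IVF testes (difference −0.81 ± 0.14). All 4 had the same adjusted p. None of them was called with the GC trend removed, without a filter on low counts or with the replicate block, each of which gave 0 genes (1486, 3277 and 2025 at an unadjusted p below 0.05, edgeR). When each of the 20 libraries was left out in turn, the number called was 425 without natural 39-week library 3, 57 without natural 39-week library 4, 2 without IVF 39-week library 4, 1 without IVF 12-week library 2 and 0 in the other removals (2124 to 2766 genes at an unadjusted p below 0.05, edgeR).

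Groups of naturals of one age also differed. Between the F2 and F1 naturals, both at 12 weeks, 567 of 20895 genes were called (177 higher and 390 lower in the F2, edgeR), and the 39-week naturals against the F2 naturals gave 1353 of 21355 (797 higher and 556 lower). The F2 animals have a different cross and stand in another count table, and their libraries held more counts, 23707177 to 27346141 each.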

How the data were processed

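RNA was extracted from testes, stranded mRNA libraries were sequenced in pairs, and counts per RefSeq gene were deposited by the authors as whole-number counts without normalization. The submitters' processing notes name Trimmomatic 0.32, STAR 2.3.0e, featureCounts 1.5.0 and DESeq2, and build mm10. Low counts were mostly even, so counts may exceed sequenced fragments. Genes were filtered by edgeR's filterByExpr, normalized by TMM and tested with edgeR 4.0.16 (glmQLFit with robust estimation, R 4.3.3), and called at an adjusted p below 0.05 and a change over 1.5-fold. CPM was set on one scale over 25 libraries. Standard errors are the log2 fold change over the root of F. Data were simulated for the natural comparison with a single dispersion (19994 genes, dispersion 0.057). There, 61 of 100 genes changed 2-fold and all 100 changed 4-fold were recovered, and 12 unchanged genes were called. A split among the older libraries, as in the real data, was not simulated. The share recovered therefore does not say how many real 2-fold changes with age would be called. Named genes were, per direction, the 8 called genes of smallest adjusted p whose ages did not overlap and whose higher mean was at least 1 CPM, called list members, the 2 tested genes of highest CPM in each list, fixed genes of the study's themes (1 of which is not reported here) and genes called for the interaction. Others are marked as chosen after their values were seen or counted in a list. The members and lists were chosen with earlier results of these data known. Alternatives were DESeq2 1.42.0, sva 3.50.0, other filters and trends, and single libraries left out. The other count tables of the series were not used here.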

Additional observations from a re-analysis of the deposited data

Results flagged for a closer look

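Single libraries that lay far from the others of their group are given here. With 136 such groups of values examined, 13 were found. Chance alone gives about 1 in 20 for groups that are independent and unselected. Some genes here were named after their values were seen, and genes of the same library are not independent. The 13 can therefore not be compared with that rate. At 12 weeks, library 1 was low for Col1a1 (16.6 CPM) and high for H2-Ab1 (69.0 CPM), and library 5 was low for Klf1 (1.15 CPM), which was lower still in all 39-week natural libraries. At 39 weeks, library 3 was high for Col4a3 (15.0 CPM), Col4a4 (44.1 CPM), Hspg2 (79.0 CPM), Igf1 (4.93 CPM) and Col3a1 (24.7 CPM), all named after their values were seen. Its summed level of collagen and extracellular matrix genes was 899 CPM. The same library was low for the summed heat shock and chaperone genes (3984 CPM). Library 4 was high for Cyp17a1 (590.3 CPM), for the summed Leydig cell genes (1404 CPM) and for the summed erythroid genes (71.1 CPM).

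The log2 effect of age differed between IVF and natural testes for 4 genes, by the interaction term of the edgeR fit (20 libraries). The difference, IVF minus natural, was 3.13 for 4930401O12Rik, 1.26 for LOC108167731, −0.81 for Pex14 and 0.72 for Abhd17b, each with an adjusted p of 0.0442. None was called with the GC trend removed, without a filter on low counts or with the replicate block, and 16 of the 20 removals of a single library also gave 0 genes (2124 to 2766 at an unadjusted p below 0.05, edgeR).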

How the results depend on the processing

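In naturals, 1 gene was called, and 4930401O12Rik was among those called under each alternative here except the F2 naturals as the 12-week group (thinned draws were compared by count alone). The count was 1 with DESeq2 size factors, no fold limit, a minimum of 10 counts in every library, halved or thinned counts, the GC trend removed or the replicate block. It was 199 with DESeq2, 8 without a filter, 6 with the length trend removed, 84 with 1 surrogate variable and 1353 with the F2 naturals, and, as alternatives chosen after seeing the data, 16 without 39-week libraries 1 and 2 and 3841 without 3 and 4. Without single libraries it was 1 to 442. Replicate numbers did not pair the natural libraries: same-numbered deviations correlated at 0.003 to 0.057, and the replicate block kept 1 gene.

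In IVF testes, 5 genes became 32 without a fold limit, 28 with DESeq2, 13 without a filter, 18 with the length trend removed, 3 with the replicate block and 0 to 45 without single libraries. It was 45 without 39-week library 4 and 0 without 12-week library 1, 2, 3 or 4 or 39-week library 5 (1932 to 2663 genes at an unadjusted p below 0.05, edgeR). The 4 genes of the interaction became 151 with DESeq2, 40 with the length trend removed, 0 without a filter, with the replicate block or with the GC trend removed (3277, 2025 and 1486 genes at an unadjusted p below 0.05, edgeR), and 0 to 425 without single libraries. The share of variance, 18.8%, was 44.1% without normalization (exact permutation p = 0.00794) and 17.7% to 27.5% without single libraries. Its exact permutation p was 0.171 to 0.257 without each 12-week library, 0.0357 without 39-week library 1 or 2, 0.0179 without library 3 and 0.0893 without library 4.

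Of 28 list medians, 11 changed sign without 39-week libraries 1 and 2, 10 of 27 with the GC trend removed and 8 without libraries 3 and 4. No called gene reversed. The 39-week naturals are the shallowest libraries, and halved or thinned counts also gave 1 gene. The cause of the changed counts was not tested.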
